A study of Mus musculus with 15 samples.

Results

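Integrins are paired adhesion receptors, and Icam1 is a cell-surface ligand for some of them. Levels of 9 integrin subunit genes (Itgax, Itgam, Itgal, Itgb2, Itga4, Itgb1, Itgav, Itgb5 and Itga6) and of Icam1 were taken from the deposited gene table by symbol. All 10 symbols were found, on 11 of the 10653 lines of that table because Itgam is split over 2 gene models, and all 11 lines passed the filter on low values. They were followed in 15 libraries of MPI cells, non-transformed female mouse macrophages of the C57BL6/J strain derived from fetal liver, which depend on GM-CSF to renew themselves and are used to model alveolar macrophages. The 5 groups of 3 libraries were untreated cells and cells kept for 24 h with riebeckite asbestos at 9 µg/cm2, riebeckite cleavage fragments at 40 µg/cm2, tremolite asbestos at 5 µg/cm2 or tremolite cleavage fragments at 60 µg/cm2. Riebeckite and tremolite are amphibole minerals, asbestos is their habit of thin fibres, and cleavage fragments are elongated pieces of the same mineral without that habit. Titles and the agent field call the first group untreated, while a general description names a vehicle control, so whether these cells received a vehicle is not settled. Doses were matched by surface area, so mass differed between the particles, and differences between minerals or habits cannot be told apart from differences in mass.

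Each integrin is a pair of an alpha and a beta chain, and the partner decides which surface or matrix protein is bound. On macrophages Itgb2 (CD18) pairs with Itgal to form LFA-1, with Itgam to form Mac-1 (complement receptor CR3) and with Itgax (CD11c) to form CR4. Between them, these receptors bind complement fragments, fibrinogen and the ICAM proteins, and they serve adhesion and phagocytosis. Itgb1 pairs with Itga4 to form VLA-4, a receptor for Vcam1 and fibronectin, and with Itga6 to form a laminin receptor. Itgav with Itgb5 is a receptor for RGD-bearing matrix proteins such as vitronectin and takes part in the uptake of apoptotic cells. Icam1 is the ligand of LFA-1 and Mac-1 and is a classical target gene of NF-kB.

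Sequences before the start sites of the ligand Icam1 and of Itgax, both of which rose with every particle, of the subunit with the largest rises (Itgb5), of its partner Itgav and of the one that fell most (Itga4) follow as a description. Whether the transcript changes arose at these promoters was not tested. RefSeq on GRCm38.p6 gave such a sequence for 7 of the 10 genes (Itga4, Itgav, Itgam, Itgax, Itgb1, Icam1 and Itgb5). Each run is the 250 bases before the RefSeq start, 5′ to 3′ on the plus strand, at chr9:21015690-21015939 for Icam1, chr7:128129300-128129549 for Itgax, chr16:33829415-33829664 for Itgb5, chr2:83724147-83724396 for Itgav and chr2:79255176-79255425 for Itga4. Capitals mark matches to searched motifs.
Icam1: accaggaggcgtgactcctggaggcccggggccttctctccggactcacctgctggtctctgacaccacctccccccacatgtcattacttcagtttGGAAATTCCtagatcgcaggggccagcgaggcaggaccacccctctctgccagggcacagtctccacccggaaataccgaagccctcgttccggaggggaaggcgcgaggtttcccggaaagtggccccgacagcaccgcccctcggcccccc
Itgax: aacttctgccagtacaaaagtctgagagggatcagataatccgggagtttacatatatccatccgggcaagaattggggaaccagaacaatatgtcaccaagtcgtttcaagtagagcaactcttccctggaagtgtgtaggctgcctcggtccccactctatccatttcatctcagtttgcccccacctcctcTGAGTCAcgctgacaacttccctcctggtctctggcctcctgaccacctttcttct
Itgb5: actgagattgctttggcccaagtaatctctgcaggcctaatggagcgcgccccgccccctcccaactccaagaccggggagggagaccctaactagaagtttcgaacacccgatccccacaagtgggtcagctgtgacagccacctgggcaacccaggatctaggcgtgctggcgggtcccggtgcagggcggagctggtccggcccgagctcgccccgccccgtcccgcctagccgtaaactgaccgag
Itgav: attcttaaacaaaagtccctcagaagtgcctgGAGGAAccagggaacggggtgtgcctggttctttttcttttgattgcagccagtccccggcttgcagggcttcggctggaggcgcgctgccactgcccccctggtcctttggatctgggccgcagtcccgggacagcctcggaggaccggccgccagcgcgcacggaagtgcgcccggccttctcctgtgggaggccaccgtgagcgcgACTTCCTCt
Itga4: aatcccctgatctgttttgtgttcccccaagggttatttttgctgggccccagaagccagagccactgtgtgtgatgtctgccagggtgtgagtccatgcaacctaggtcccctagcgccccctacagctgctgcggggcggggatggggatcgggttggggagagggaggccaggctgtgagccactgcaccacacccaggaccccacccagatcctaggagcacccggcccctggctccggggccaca

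The motifs were searched on both strands of 32851 RefSeq promoters of this length. The AP-1 motif TGANTCA was in 6.75% of them and in 1 of the 7 member promoters, that of Itgax, as TGAGTCA starting 56 bases before the start. GAGGAA, a core of the myeloid factor PU.1, was in 23.3% and in those of Itgav, Itgam and Itgb1, and its longer form GAGGAAGT, which overlaps it, was in 2.44% and in that of Itgav. The general kappaB consensus was in 3.90%, TATAAA in 12.4% and the C/EBP motif TTNCGCAA in 0.67%, and 0 of the 7 member promoters held any of these. After the consensus gave no match and the Icam1 sequence had been seen, a kappaB-type motif of 9 letters, GGAAATTCC, was searched as well. It was in 0.286% of all promoters and in 1 of the 7, that of Icam1, starting 153 bases before the start. A match is a description of letters and shows neither binding nor use of a site.

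The cells carried macrophage transcripts in all groups, with 8 of 8 listed macrophage markers and 9 of 9 alveolar macrophage markers in the table. Of the markers of other cells, 0 of 9 for lymphocytes, 0 of 6 for endothelium and 0 of 7 for platelets and mast cells were listed, and 1 of 8 for neutrophils (S100a8), 1 of 6 for dendritic cells (Clec9a) and 1 of 8 for fibroblasts and epithelium (Cdh1). Itgax is also a marker of alveolar macrophages and dendritic cells, so its change is set beside theirs. Summed macrophage markers had group means from 5070 to 6292 FPKM. Riebeckite asbestos, riebeckite fragments, tremolite asbestos and tremolite fragments had 45.3, 38.4, 23.9 and 27.5% of all genes called against untreated cells (limma adjusted p under 0.05). Of the 8 macrophage markers, 4, 3, 3 and 4 rose and 3, 2, 2 and 2 fell, in that order. Of the 9 alveolar macrophage markers, 3 rose and 5 fell with riebeckite asbestos, 4 and 4 with riebeckite fragments, 3 and 3 with tremolite asbestos, and 4 and 3 with tremolite fragments. Siglecf had the highest rises, from 10.7 to between 27.4 and 55.4 FPKM, while Fabp4 went from 95.7 down to between 33.4 and 60.7 FPKM. Clec9a rose from 9.00 to between 11.5 and 14.8 FPKM. S100a8 stood at 27.9 FPKM in untreated cells, rose to 56.7, 51.6 and 35.3 with riebeckite asbestos, riebeckite fragments and tremolite asbestos, and was 28.1 with tremolite fragments (limma adjusted p = 0.910). Cdh1 fell from 53.3 to between 25.7 and 35.6 FPKM. The part of these shifts in the integrin values was not tested. In bulk RNA, fewer cells of a type and less RNA per cell cannot be told apart. Libraries summed to between 257329 and 273570 FPKM at an unknown read depth, and 0 pairs were identical. Whether the 3 libraries of a group are separate cultures is not stated in the labels; p-values therefore cover only the scatter of these samples, and that scatter may be technical.

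FPKM scale fragments by length and by the mapped total of a library. The gene values fit a length over all exons of a gene model, so comparisons of level between genes depend on that model. In untreated cells Itgb2 stood highest at 588 ± 10.3 FPKM (SD, n = 3), rank 41 of all genes, and Itgb1 followed at 147 ± 5.30, rank 215. Itgam (both lines summed, 38.3 ± 5.07), Itgax (37.2 ± 0.490) and Itgal (34.7 ± 1.43) lay close together. The Itgam libraries overlapped those of Itgax and those of Itgal, while all Itgal libraries lay below those of Itgax. Icam1 stood at 17.3 ± 0.405, Itga4 at 8.70 ± 0.697 and Itgb5 at 7.64 ± 0.607, the last pair with overlapping libraries. Itgav (3.82 ± 0.157) and Itga6 (1.41 ± 0.180) were lowest. Itgb2 thus outnumbered the sum of its 3 alpha chains in every group at the RNA level.

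Every particle moved several members at once, with Itgax, Itgb5 and Icam1 higher and Itga4 and Itgb1 lower than in untreated cells. Of the 11 lines tested, riebeckite asbestos raised 7 and lowered 2, riebeckite fragments 6 and 2, tremolite asbestos 3 and 2, and tremolite fragments 6 and 2 (limma on log2(FPKM + 1), Benjamini-Hochberg adjusted p under 0.05 over 10616 genes). Over all genes tested, 45.3, 38.4, 23.9 and 27.5% were called in these comparisons in that order. Higher calls made up 21.0, 15.3, 10.0 and 12.5% of all genes, and lower calls the rest (24.3, 23.1 and 13.9% in the first 3). The median log2 fold change over the 11 lines was 0.41, 0.29, 0.10 and 0.23, beside -0.02, -0.04, -0.03 and -0.02 over all genes. Across the 5 groups 10 of the 11 lines differed, where 47.7% of all genes did. The exception was the first Itgam line.

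**Figure D1:**
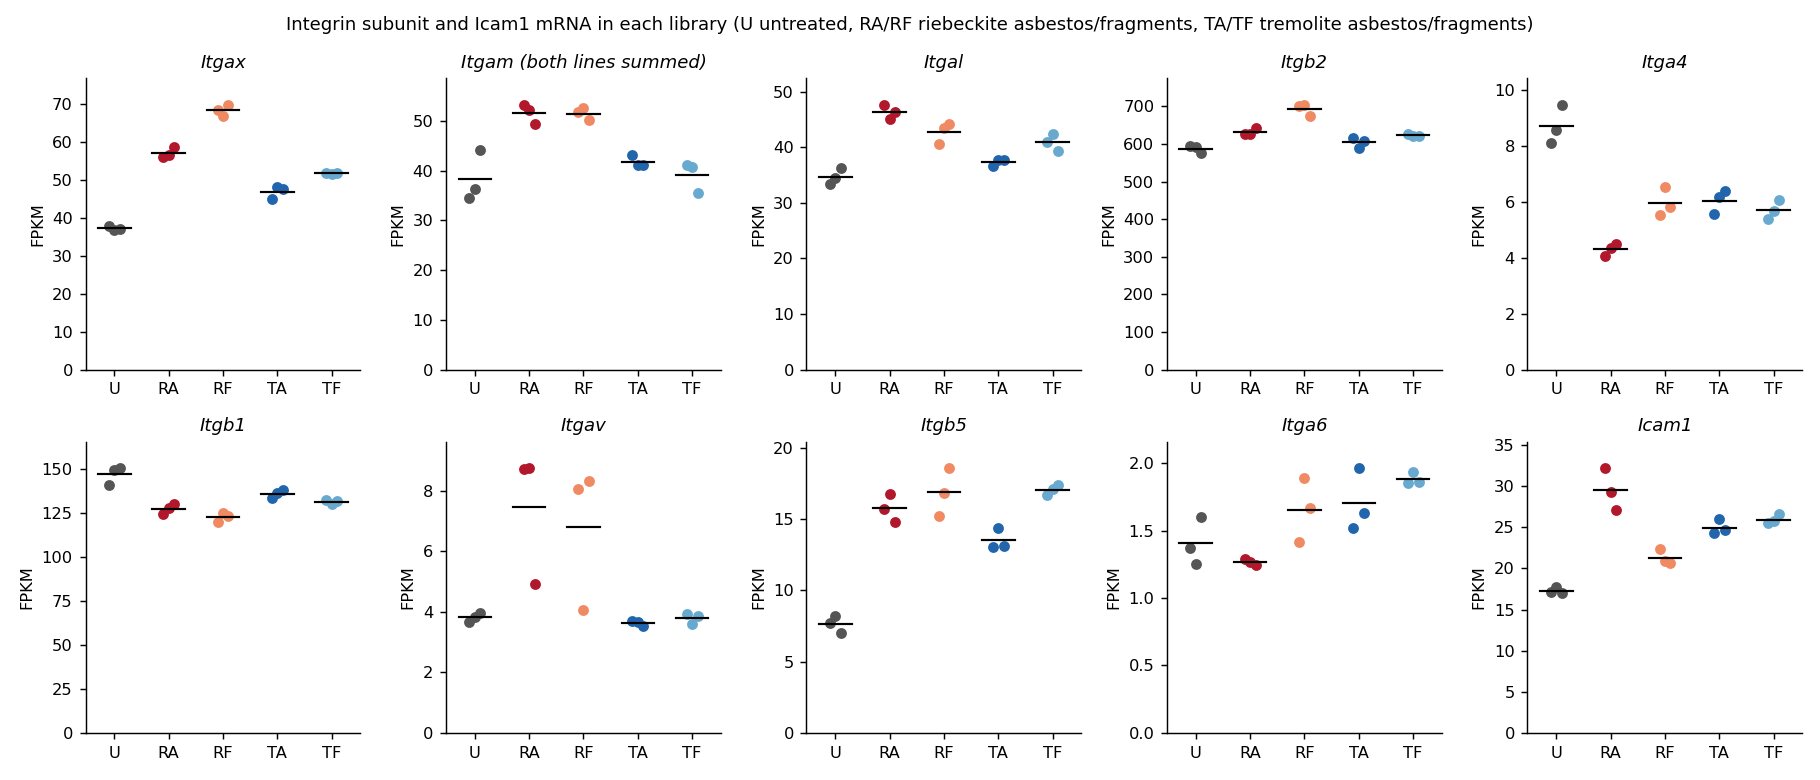
FPKM of each gene in each of the 15 libraries (points) with the group mean (line), for untreated cells (U), riebeckite asbestos (RA), riebeckite fragments (RF), tremolite asbestos (TA) and tremolite fragments (TF). Itgax, Itgb5 and Icam1 lie above and Itga4 and Itgb1 below the untreated libraries in all 4 treated groups, and Itgav splits within the riebeckite groups.

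Itgax, the CD11c chain of CR4 (ENSMUSG00000030789.9, GRCm38 chromosome 7, 128129547 to 128150657), rose with every particle. Its levels were 37.8, 36.9 and 37.0 FPKM in untreated cells, 55.9, 56.5 and 58.5 after riebeckite asbestos, 68.4, 66.8 and 69.7 after riebeckite fragments, 44.9, 47.9 and 47.7 with tremolite asbestos, and 51.6, 51.5 and 51.8 after tremolite fragments. No pair of groups overlapped, and the order from high to low was riebeckite fragments, riebeckite asbestos, tremolite fragments, tremolite asbestos and untreated. The log2 fold changes against untreated cells were 0.60 (SE 0.0303) for riebeckite asbestos, 0.86 for riebeckite fragments, 0.32 for tremolite asbestos and 0.46 for tremolite fragments (limma adjusted p = 4.34e-09, 2.52e-10, 5.73e-06 and 1.55e-07). Levels were lower after riebeckite asbestos than after riebeckite fragments (-0.26, adjusted p = 2.88e-04). For tremolite the same contrast was -0.14 (95% interval -0.20 to -0.07) and missed the threshold (adjusted p = 0.0543). The test of whether this contrast differs between the minerals was not passed (-0.12, adjusted p = 0.152). Riebeckite exceeded tremolite in both habits, by 0.28 for asbestos and 0.40 for fragments (adjusted p = 2.70e-05 and 4.44e-06).

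Itgal, the alpha chain of LFA-1 (ENSMUSG00000030830.18, chromosome 7, 127296260 to 127335138), rose with 3 of the 4 particles. Its levels were 33.4, 34.6 and 36.2 FPKM in untreated cells, 47.7, 45.0 and 46.5 after riebeckite asbestos, 40.7, 43.6 and 44.1 after riebeckite fragments, 36.6, 37.7 and 37.7 with tremolite asbestos, and 40.9, 42.5 and 39.4 after tremolite fragments. The riebeckite asbestos libraries were highest, above all others, and every treated library lay above the untreated ones. The log2 fold changes were 0.41, 0.29 and 0.23 for riebeckite asbestos, riebeckite fragments and tremolite fragments (limma adjusted p = 3.60e-06, 8.82e-05 and 9.40e-04). For tremolite asbestos it was 0.10 (adjusted p = 0.0919, and 0.14 with adjusted p = 0.0198 after TMM rescaling). Riebeckite asbestos exceeded tremolite asbestos by 0.31 (adjusted p = 1.50e-04).

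Itgb2, the beta chain shared by Itgal, Itgam and Itgax (ENSMUSG00000000290.13, chromosome 10, 77530252 to 77565708), was the most abundant member and moved little. Its levels were 594, 592 and 576 FPKM in untreated cells, 627, 626 and 643 after riebeckite asbestos, 701, 704 and 676 after riebeckite fragments, 617, 589 and 609 with tremolite asbestos, and 628, 621 and 623 after tremolite fragments. The riebeckite fragment libraries stood above all others, and the tremolite asbestos libraries overlapped the untreated ones. The log2 fold change was 0.24 for riebeckite fragments (limma adjusted p = 1.19e-05), 0.11 for riebeckite asbestos (0.00590) and 0.09 for tremolite fragments (0.0281), and 0.04 for tremolite asbestos (0.286). The tremolite fragment call was lost without untreated replicate 2 or 3 or any 1 of the tremolite fragment libraries (adjusted p up to 0.108), and without the mean-variance trend (adjusted p = 0.0671). Levels were lower after riebeckite asbestos than after riebeckite fragments (-0.13, adjusted p = 0.00762), but quantile normalization turned this difference to 0.05 (adjusted p = 0.205), and the call was lost in a fit of those groups alone (adjusted p = 0.0821). Riebeckite fragments exceeded tremolite fragments by 0.15 (adjusted p = 0.00270), and quantile normalization reduced this to 0.05 (adjusted p = 0.158).

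Itgam, the CD11b chain of Mac-1, appears as a pair of gene models that share exons (ENSMUSG00000030786.18, chromosome 7, 128062640 to 128118491, and ENSMUSG00000108596.1, 128062683 to 128128160). Of the 4803 exonic bases of the second line, 3450 (71.8%) lie in exons of the first. Reads from these bases can go to either line, and the values of each line are uncertain. The first line held 4.44, 14.7 and 17.2 FPKM in untreated cells, 12.0, 14.9 and 6.68 after riebeckite asbestos, 8.54, 24.4 and 22.9 after riebeckite fragments, 9.71, 15.9 and 9.45 with tremolite asbestos, and 22.2, 9.20 and 16.8 after tremolite fragments. In the second line the values were 30.2, 21.6 and 26.9 FPKM in untreated cells, then 41.2, 37.4 and 42.7, then 43.2, 28.2 and 27.3, then 33.5, 25.2 and 31.7, and 19.0, 31.5 and 18.8 in the treated groups in the same order. Where a library was low in one line it tended to be high in the other, with Pearson's r of -0.591 across the 15 libraries, which is given as a description since both lines draw on the same reads.

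**Figure D2:**
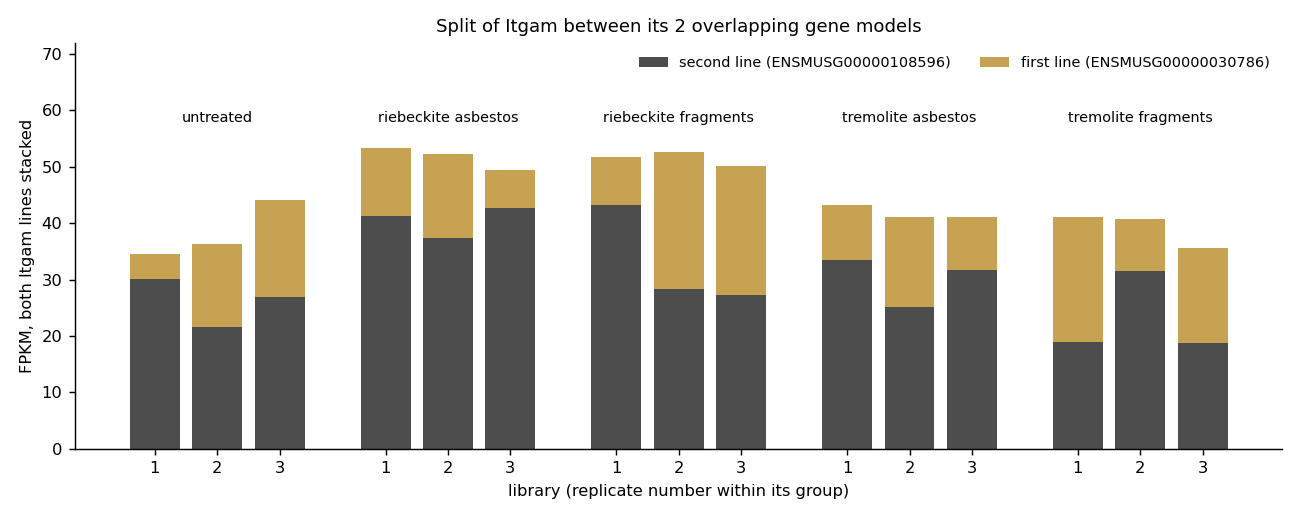
FPKM of the 2 overlapping Itgam gene models stacked for each library, with libraries grouped by treatment and the replicate number below each bar. The split between the models varies within groups, while the stacked height lies between 34.6 and 44.1 FPKM in untreated cells and between 49.4 and 53.3 FPKM in the riebeckite groups.

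The sum of both Itgam lines, a measure added after the lines were seen to vary against each other, rose with riebeckite. It was 34.6, 36.3 and 44.1 FPKM in untreated cells, 53.3, 52.2 and 49.4 after riebeckite asbestos, 51.7, 52.6 and 50.2 after riebeckite fragments, 43.3, 41.1 and 41.2 with tremolite asbestos, and 41.1, 40.7 and 35.5 after tremolite fragments. All 6 riebeckite libraries lay above all others, and both tremolite groups overlapped the untreated one. The log2 fold changes were 0.43 (SE 0.0764) and 0.42 for riebeckite asbestos and fragments (limma adjusted p = 5.26e-04 and 6.77e-04), 0.13 for tremolite asbestos (0.251) and 0.03 for tremolite fragments (0.799). Without untreated replicate 3 the tremolite asbestos value was 0.23 (adjusted p = 0.0154). Riebeckite exceeded tremolite by 0.30 for asbestos and 0.39 for fragments (adjusted p = 0.0120 and 0.00565), and between the riebeckite habits the difference was 0.00 (95% interval -0.16 to 0.17). Taken line by line, the first gave no call in any of these comparisons, and the second was called after riebeckite asbestos (0.62, adjusted p = 0.0278), a call lost without untreated replicate 2 or 3 or riebeckite asbestos replicate 1 or 3 (adjusted p up to 0.109).

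Within the Itgb2 partners, the share of CD11c was above its untreated level in all 4 treated group means, without a test that could pass. Itgax made up 33.8% ± 2.13 of the summed FPKM of Itgal, Itgam and Itgax in untreated cells, and 42.0% ± 0.890 after riebeckite fragments, 39.2% ± 1.42 after tremolite fragments, 37.2% after tremolite asbestos and 36.8% ± 1.12 after riebeckite asbestos (n = 3 each). The libraries of both fragments and of tremolite asbestos did not overlap the untreated ones, whereas the riebeckite asbestos libraries did. With 3 libraries against 3, an exact permutation test cannot go below p = 0.1, and over the 24 share comparisons the smallest adjusted p was 0.126, so none could pass. The Itgal share was 31.5% in untreated cells. After riebeckite asbestos, riebeckite fragments, tremolite asbestos and tremolite fragments it was 29.9, 26.3, 29.6 and 31.1%. In that share only the tremolite fragment libraries overlapped the untreated ones. Itgam stood at 34.7% in untreated cells and at 29.7 to 33.3% in the treated groups.

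Itgb1, the beta chain of the matrix receptors (ENSMUSG00000025809.15, chromosome 8, 128685654 to 128733200), fell with every particle. Its levels were 141, 149 and 151 FPKM in untreated cells, 124, 128 and 130 after riebeckite asbestos, 120, 125 and 123 after riebeckite fragments, 134, 136 and 138 with tremolite asbestos, and 132, 130 and 132 after tremolite fragments. All 12 treated libraries lay below the untreated ones. The log2 fold changes were -0.20, -0.26, -0.11 and -0.16 in that order (limma adjusted p = 1.13e-04, 1.87e-05, 0.0171 and 0.00156). The tremolite asbestos call was lost after TMM rescaling (-0.07, adjusted p = 0.111), in a fit of the compared groups alone (adjusted p = 0.0803) and without untreated replicate 2 or 3 or tremolite asbestos replicate 1 (adjusted p up to 0.0736). As a share of Itgb1, Itgb2 and Itgb5 together, Itgb1 stood at 19.8% ± 0.791 in untreated cells and at 16.4, 14.7, 18.0 and 17.0% in the treated groups, in the order riebeckite asbestos, riebeckite fragments, tremolite asbestos and tremolite fragments.

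Itga4, the alpha chain of VLA-4 (ENSMUSG00000027009.18, chromosome 2, 79255426 to 79333123), had the largest falls. Its levels were 8.08, 8.56 and 9.46 FPKM in untreated cells, 4.07, 4.34 and 4.48 after riebeckite asbestos, 5.51, 6.52 and 5.82 after riebeckite fragments, 5.57, 6.17 and 6.36 with tremolite asbestos, and 5.38, 5.67 and 6.05 after tremolite fragments. The riebeckite asbestos libraries were lowest and overlapped no other group, the other 3 treated groups overlapped one another, and all treated libraries lay below the untreated ones. The log2 fold change was -0.87 for riebeckite asbestos (limma adjusted p = 4.02e-07), -0.48 for riebeckite fragments (1.22e-04), -0.46 for tremolite asbestos (3.49e-04) and -0.53 for tremolite fragments (8.20e-05). Riebeckite asbestos lay below riebeckite fragments by -0.39 (adjusted p = 0.00443) and below tremolite asbestos by -0.41 (adjusted p = 9.47e-04). Between the tremolite habits the difference was 0.07 (adjusted p = 0.806).

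Itga6, the laminin receptor chain (ENSMUSG00000027111.15, chromosome 2, 71745616 to 71858416), was the least abundant member, and the log scale with 1 FPKM added understates its changes. Its levels were 1.37, 1.25 and 1.60 FPKM in untreated cells, 1.29, 1.27 and 1.24 after riebeckite asbestos, 1.41, 1.89 and 1.66 after riebeckite fragments, 1.52, 1.96 and 1.63 with tremolite asbestos, and 1.85, 1.93 and 1.86 after tremolite fragments. The tremolite fragment libraries lay above the untreated ones, and the other 3 treated groups overlapped them. Tremolite fragments gave the 1 call against untreated cells (0.26, limma adjusted p = 0.0212), which was lost without untreated replicate 1 or 2 or tremolite fragments replicate 2 (adjusted p up to 0.0895). The other values were -0.08, 0.14 and 0.17 for riebeckite asbestos, riebeckite fragments and tremolite asbestos (adjusted p = 0.408, 0.169 and 0.135).

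Itgb5, the beta chain that pairs with Itgav (ENSMUSG00000022817.14, chromosome 16, 33829665 to 33949153), had the largest rises of the members. Its levels were 7.73, 8.20 and 6.996 FPKM in untreated cells, 15.7, 16.7 and 14.8 after riebeckite asbestos, 15.2, 16.8 and 18.6 after riebeckite fragments, 13.0, 14.4 and 13.1 with tremolite asbestos, and 16.7, 17.1 and 17.4 after tremolite fragments. Every treated library stood above every untreated one, and tremolite asbestos was the lowest of the treated groups. The log2 fold changes were 0.95 (SE 0.0709), 1.05, 0.75 and 1.06 in that order (limma adjusted p = 1.84e-07, 1.09e-07, 6.43e-06 and 1.76e-07). Among the particles the differences were -0.09 between the riebeckite habits (adjusted p = 0.463) and -0.32 between the tremolite habits (adjusted p = 0.0603). Riebeckite asbestos exceeded tremolite asbestos by 0.21 (adjusted p = 0.0479), a call lost under 5 of the other settings and without any 1 of 9 libraries (adjusted p up to 0.154), namely untreated replicate 1, riebeckite asbestos replicates 1 and 2, riebeckite fragments replicate 2, tremolite asbestos replicates 1 and 3 and all 3 tremolite fragment libraries. Its share of the 3 beta chains went from 1.03% to 2.03, 2.03, 1.79 and 2.21%.

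Itgav, the alpha chain of the vitronectin receptors (ENSMUSG00000027087.11, chromosome 2, 83724397 to 83806916), was high in 4 of the 6 riebeckite libraries. Its levels were 3.66, 3.82 and 3.97 FPKM in untreated cells, 8.70, 8.74 and 4.92 after riebeckite asbestos, 8.04, 4.07 and 8.31 after riebeckite fragments, 3.70, 3.67 and 3.52 with tremolite asbestos, and 3.93, 3.58 and 3.85 after tremolite fragments. Riebeckite asbestos replicate 3 and riebeckite fragments replicate 2 stood apart from the other 4 riebeckite libraries, still above the untreated ones, and both tremolite groups overlapped the untreated group. The log2 fold change was 0.77 for riebeckite asbestos (limma adjusted p = 0.00965) and 0.64 for riebeckite fragments (0.0293), and -0.06 and -0.01 for tremolite asbestos and fragments (0.881 and 0.983). The riebeckite fragments call was lost without any 1 untreated library or riebeckite fragments replicate 1 or 3 (values 0.49 to 0.93 over all omissions, adjusted p up to 0.117) and with a fit of the compared groups alone (adjusted p = 0.0680). Riebeckite asbestos exceeded tremolite asbestos by 0.83 (adjusted p = 0.0117, and 0.0544 without riebeckite asbestos replicate 1), and for fragments the difference was 0.65 (adjusted p = 0.0682). In the transcript table the 7054-base transcript of Itgav was listed in every library, and another, Itgav-202, was listed at 0 in 12 of 15 libraries, at 4.02 and 3.93 FPKM in riebeckite asbestos replicate 3 and riebeckite fragments replicate 3, and at 1.07 in untreated replicate 1. In riebeckite asbestos replicate 3 it stood above the 7054-base transcript (3.39 FPKM). Unlike the gene, the 7054-base transcript was not called after riebeckite asbestos or riebeckite fragments (0.61 each, limma adjusted p = 0.373 and 0.413).

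**Figure D3:**
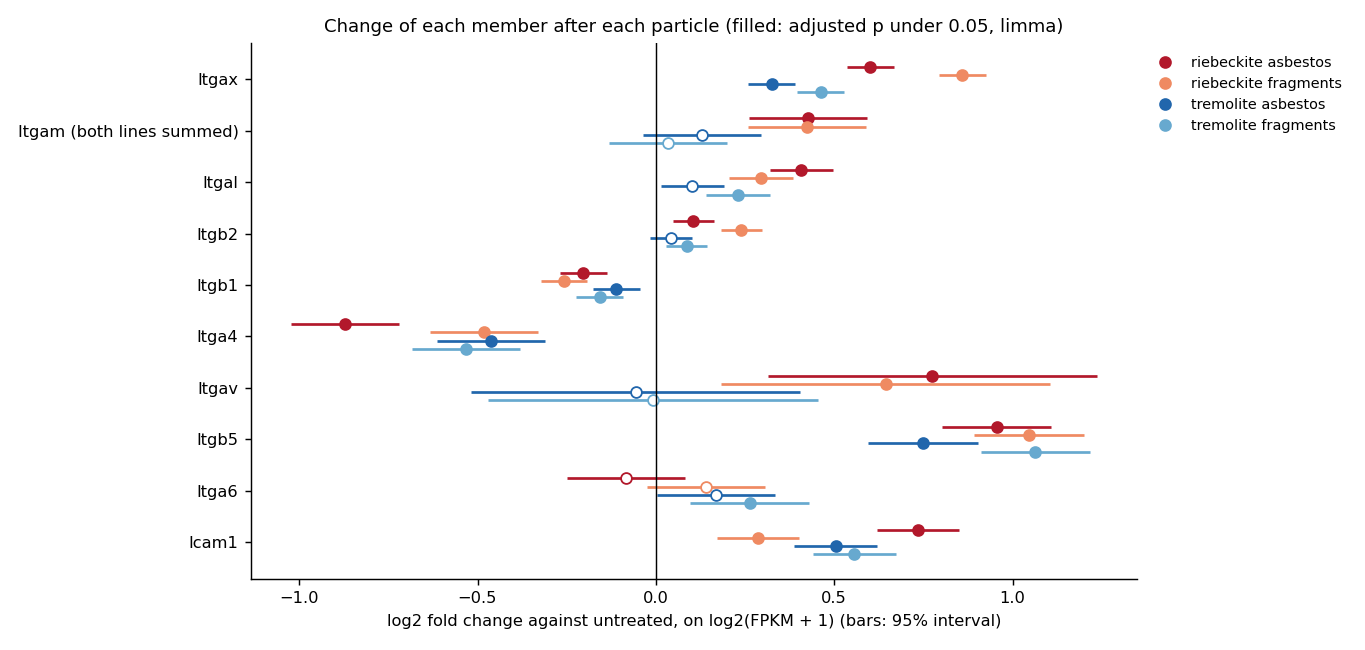
Log2 fold change of each gene against untreated cells on log2(FPKM + 1), with bars for the 95% interval and filled points for limma adjusted p under 0.05; Itgam is shown as the sum of its lines. Itgb5 moved most among the rises, between 0.75 and 1.06, Itga4 moved most among the falls, between -0.87 and -0.46, and the widest intervals among those drawn are those of Itgav.

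Icam1, the ligand of LFA-1 and Mac-1 (ENSMUSG00000037405.8, chromosome 9, 21015985 to 21028817), rose with every particle and most with riebeckite asbestos. Its levels were 17.2, 17.8 and 17.0 FPKM in untreated cells, 32.2, 29.3 and 27.1 after riebeckite asbestos, 22.3, 20.9 and 20.7 after riebeckite fragments, 24.2, 26.0 and 24.6 with tremolite asbestos, and 25.5, 25.7 and 26.6 after tremolite fragments. The riebeckite asbestos libraries were above all others, the riebeckite fragment libraries were the lowest of the treated ones, and the tremolite groups overlapped each other. The log2 fold changes were 0.74 (SE 0.0532), 0.29, 0.50 and 0.56 in that order (limma adjusted p = 1.45e-07, 8.55e-04, 1.65e-05 and 4.83e-06). Riebeckite asbestos exceeded riebeckite fragments by 0.45 (adjusted p = 2.98e-04) and tremolite asbestos by 0.23 (adjusted p = 0.00636, and 0.0536 in a fit of those 2 groups alone). For fragments the order of the minerals was the opposite, with riebeckite below tremolite by -0.27 (adjusted p = 0.00572). Between the tremolite habits the difference was -0.05 (95% interval -0.17 to 0.06, adjusted p = 0.805).

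Set side by side, asbestos and fragments of riebeckite differed in 4 of the 11 lines, Icam1 higher and Itgax, Itgb2 and Itga4 lower with asbestos, where 10.6% of all genes were called, 6.71% higher and 3.85% lower. Asbestos and fragments of tremolite differed in 0 of the 11 lines by limma, with 0.942% of all genes called (0.386% higher and 0.556% lower), although 3 lines had an unadjusted p under 0.05, and quantile normalization called 2 lines and a minimum mean of 5 FPKM called 1. The 2 asbestos minerals differed in 8 lines, 5 of them higher with riebeckite, where 26.5% of all genes were called, 15.5% higher with riebeckite and the rest lower. That count was 5 when these groups were fitted alone, 4 without riebeckite asbestos replicate 1, and 5 without riebeckite asbestos replicate 2 or tremolite asbestos replicate 3. The fragments of both minerals differed in 3 lines, Itgax and Itgb2 higher and Icam1 lower with riebeckite, where 11.3% of all genes were called, 5.31% higher and 6.01% lower.

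The contrast of asbestos with fragments differed between riebeckite and tremolite for 3 lines, Icam1 and Itgal upward and Itga4 downward, where 3.93% of all genes were called, 2.65% upward and 1.28% downward. For Icam1 it was 0.45 in riebeckite and -0.05 in tremolite, a difference of 0.50 (SE 0.0752, limma adjusted p = 0.00435). For Itga4 it was -0.39 and 0.07, a difference of -0.46 (adjusted p = 0.0239), which missed the threshold without riebeckite asbestos replicate 1, riebeckite fragments replicate 2, tremolite asbestos replicate 3 or tremolite fragments replicate 1 or 2 (adjusted p up to 0.0622). For Itgal it was 0.11 and -0.13, a difference of 0.24 (adjusted p = 0.0377), which missed it after TMM rescaling (adjusted p = 0.0644), after quantile normalization (0.0744), without the mean-variance trend (0.0589) and without any 1 of 10 of the 15 libraries (up to 0.0984). The libraries whose omission kept the Itgal call were untreated replicates 1 and 3, riebeckite asbestos replicate 2, riebeckite fragments replicate 3 and tremolite fragments replicate 3. Without riebeckite asbestos replicate 1, riebeckite fragments replicate 2, tremolite asbestos replicate 3 or tremolite fragments replicate 1 or 2, the count of lines was 1.

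**Figure D4:**
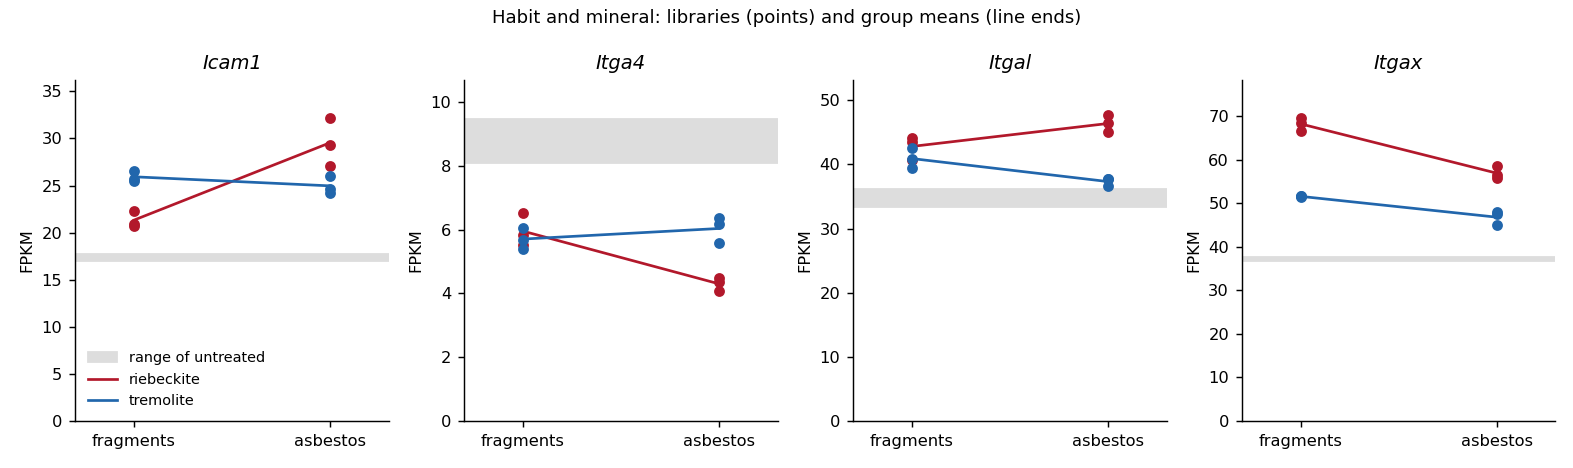
FPKM of 4 genes by habit (fragments or asbestos) for riebeckite (red) and tremolite (blue), with points for libraries, lines joining group means and a grey band for the range of the untreated libraries. Icam1 lines cross, with riebeckite at 21.3 and 29.5 FPKM and tremolite at 25.9 and 25.0 FPKM for fragments and asbestos. The Itgax lines do not cross, with riebeckite at 68.3 and 57.0 FPKM and tremolite at 51.6 and 46.8 FPKM.

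Transcript levels gave a second deposited readout, which draws on the same reads. Of 24 member transcripts tested, 6 were higher and 2 lower than untreated with either riebeckite particle, 3 and 1 with tremolite asbestos, and 4 and 2 with tremolite fragments, where 13.0, 10.3, 5.02 and 6.29% of all transcripts were called. The main transcripts of Itgax, Icam1, Itgb5 and Itga4 were called in all 4 comparisons, in the direction of their genes. Itgal-204 rose after riebeckite asbestos (0.46, limma adjusted p = 0.00288), riebeckite fragments (0.38, 0.0131) and tremolite fragments (0.34, 0.0348). The 5195-base transcript of Itgal, set against 4533 bases of Itgal-204, gave 0.32, 0.19 and 0.08 there, with adjusted p = 0.202, 0.527 and 0.886. The change of Itgal was thus called on 1 of its 5 listed transcripts, and a difference between the transcripts was not tested.

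Of 17 other integrin subunit genes, Itga1 and Itga5 were in the table, and both rose with every particle. Itga5, the fibronectin receptor chain that pairs with Itgb1, went from 15.03 ± 0.280 FPKM to 28.7 ± 2.04 after riebeckite asbestos, 23.7 after riebeckite fragments, 22.6 after tremolite asbestos and 24.2 after tremolite fragments, with a log2 fold change of 0.89 for the first (limma adjusted p = 3.91e-09). Itga1, a collagen receptor chain, stood at 0.377 FPKM in untreated cells and at 2.05, 1.85, 1.05 and 1.29 FPKM in the same order. So among the partners of Itgb1, Itga4 fell and Itga1 and Itga5 rose, while Itgb1 itself was lower. All 4 genes were called in all 4 comparisons. The Itgb1 call for tremolite asbestos was lost after TMM rescaling (limma adjusted p = 0.111). Itga6, a further partner, was called only after tremolite fragments.

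Ligands were sparse in these cells. Of 11 further cell-surface ligands, 4 were in the table, and 2 rose with every particle, F11r (JAM-A, a ligand of LFA-1) from 22.6 to between 33.1 and 38.9 FPKM and Cd47, a partner of integrins and a signal that restrains phagocytosis, from 72.6 to between 80.8 and 89.2. Icam2 (2.06 FPKM in untreated cells) and Icam5 (1.97) fell after both riebeckite particles, to 1.07 and 1.37 for Icam2 and to 1.35 and 1.37 for Icam5. Icam2 was also called after tremolite asbestos (-0.36, limma adjusted p = 0.0457), but not after TMM rescaling (0.0644) or under 4 other settings. Its riebeckite fragments call was lost without untreated replicate 1 or 3 or riebeckite fragments replicate 1 or 3 (adjusted p up to 0.131). So of the ICAM genes in the table Icam1 rose and the other 2, both near 2 FPKM, were lower with riebeckite. Over all genes, 21.0, 15.3, 10.0 and 12.5% were called higher (riebeckite asbestos, riebeckite fragments, tremolite asbestos, tremolite fragments). Lower calls made up 24.3, 23.1 and 13.9% in the first 3. The median log2 fold change of the 4 ligands was -0.09, -0.02, 0.03 and 0.06 in the same order. Over all genes it was -0.02, -0.04, -0.03 and -0.02. Whether the ligand counts differ from the background was not tested.

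Of 29 matrix and soluble ligands, 7 were in the table, of which 5 rose and 1 fell after each riebeckite particle and 4 rose and 0 fell after each tremolite particle, beside 45.3, 38.4, 23.9 and 27.5% of all genes called in either direction. Their median log2 fold change was 1.11, 0.96, 0.47 and 0.76 in the order of the groups, beside -0.02 to -0.04 over all genes. Spp1 (osteopontin, bound by Itgav and Itga4 integrins) went from 666 FPKM to 2381, 2821, 1691 and 1956, with a log2 fold change of 1.84 after riebeckite asbestos (limma adjusted p = 1.51e-11). Mfge8, which bridges apoptotic cells to Itgav with Itgb5 or Itgb3, went from 58.4 to 163, 151, 110 and 100.4 FPKM. C3, whose fragment iC3b is bound by Mac-1 and CR4, went from 74.1 to 161, 145, 125 and 126 FPKM, and Nid1, a basement membrane protein, from 3.86 to 10.6, 11.04, 5.75 and 7.70. Fn1, the fibronectin gene, was the 1 gene that fell, from 5.93 FPKM to 1.62 after riebeckite asbestos and 2.00 after riebeckite fragments, beside 5.18 and 6.01 after the tremolite particles. Its log2 fold changes were -1.40 and -1.20 (limma adjusted p = 1.21e-07 and 7.42e-07), and -0.16 and 0.03 for tremolite. With a minimum mean of 5 FPKM it was not tested, and no gene of the list was then called lower. Fn1 is named because it is the 1 gene of that count, and it was chosen after its values were seen.

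**Figure D5:**
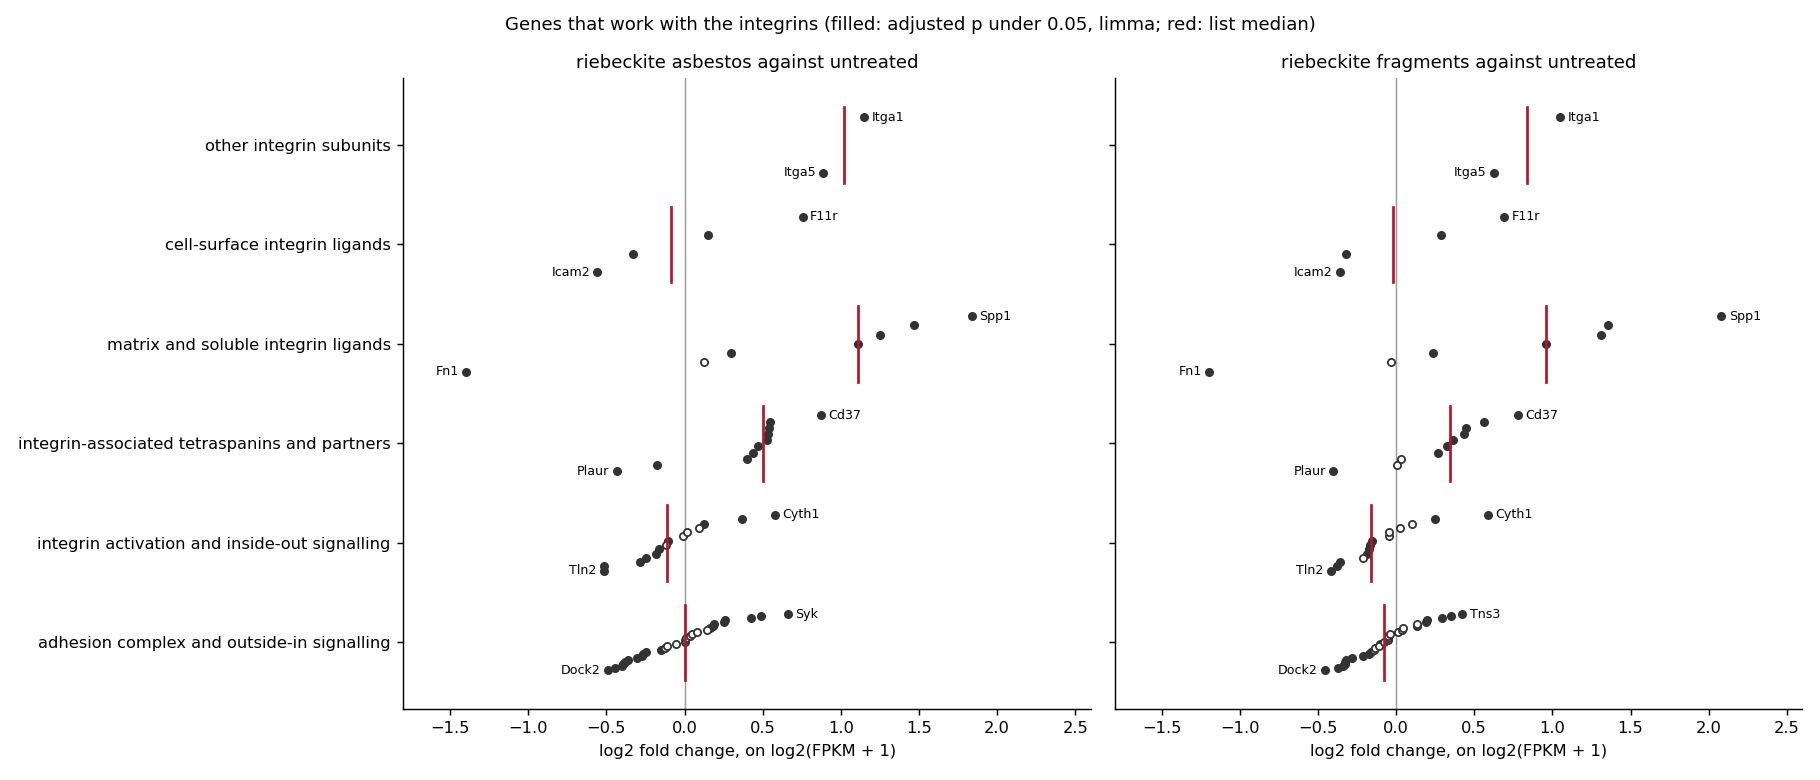
Log2 fold changes of genes that work with integrins after riebeckite asbestos (left) and riebeckite fragments (right) against untreated cells, 1 point per gene, filled for limma adjusted p under 0.05, with red lines for list medians and names at both ends of each list. Matrix and soluble ligands have the highest spread, from -1.40 to 1.84 with riebeckite asbestos, and the signalling lists lie around 0.

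Membrane partners moved upward in part. Of 10 tetraspanins and other integrin partners, riebeckite asbestos raised 8 and lowered 2, riebeckite fragments 7 and 1, and each tremolite particle 5 and 1, beside 45.3, 38.4, 23.9 and 27.5% of all genes called in either direction. Cd37, a tetraspanin of leukocytes, went from 9.63 to 18.5, 17.2, 12.3 and 12.6 FPKM, and Cd63, a tetraspanin of late endosomes, from 95.4 to 140.0 FPKM after riebeckite asbestos (0.55, limma adjusted p = 3.91e-06). Cd81 stood at 50.8 FPKM in untreated cells, 74.1 and 75.5 after the riebeckite particles, 70.7 after tremolite fragments and 54.2 after tremolite asbestos, where it was not called (0.09, adjusted p = 0.315). Plaur, the urokinase receptor, fell with every particle, from 66.4 to between 46.9 and 50.01 FPKM.

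Genes of the machinery that switches integrins on were called in both directions. Of 14 tested genes of integrin activation, riebeckite asbestos raised 3 and lowered 7, riebeckite fragments 2 and 7, tremolite asbestos 2 and 3, and tremolite fragments 2 and 5. The rises were near the shares of all genes called higher, 21.0, 15.3, 10.0 and 12.5%. The falls made up a larger part of this list than of all genes in each comparison. Of all genes, 24.3, 23.1 and 13.9% were called lower in the first 3. Whether the falls exceed the background was not tested. Tln1, the talin that opens integrins from inside the cell, went from 61.6 to 50.2, 47.8, 52.6 and 51.2 FPKM, with log2 fold changes of -0.29, -0.36, -0.22 and -0.26 (limma adjusted p = 1.28e-05, 2.25e-06, 3.16e-04 and 6.35e-05). Tln2, its less abundant relative, fell as well, from 6.78 to between 4.43 and 5.32 FPKM. Prkcd, a protein kinase C, and Cyth1, a regulator of LFA-1, rose with every particle, Prkcd from 81.0 to between 96.5 and 105 FPKM and Cyth1 from 18.8 to between 23.3 and 28.8. The Cyth1 call for tremolite asbestos (0.30, adjusted p = 0.0229) was lost without untreated replicate 3 or tremolite asbestos replicate 2 or 3 (adjusted p up to 0.101).

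Of 29 tested genes of the adhesion complex and of signalling from integrins, riebeckite asbestos raised 8 and lowered 11, riebeckite fragments 6 and 11, tremolite asbestos 3 and 9, and tremolite fragments 3 and 10. Over all genes 21.0, 15.3, 10.0 and 12.5% were called higher, so these rises too lay near the background. Here as well the falls made up a larger part of the list than of all genes in each comparison. The shares of all genes called lower were 24.3, 23.1 and 13.9% in the first 3. This difference was not tested. Syk, the kinase downstream of Itgb2 integrins, went from 70.1 to 112, 89.9, 96.6 and 94.3 FPKM, with a log2 fold change of 0.66 after riebeckite asbestos (limma adjusted p = 5.45e-10). Vav1, a signalling protein of blood cells, went from 46.6 to 62.9, 53.4, 52.7 and 54.3 FPKM. Lyn, a Src family kinase, fell from 77.5 to between 56.6 and 64.7 FPKM, and Dock2, an exchange factor for Rac, from 56.8 to between 40.1 and 44.5. The lists were chosen with earlier results of these data known, and their counts are descriptions.

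Genes whose levels ran most alike with a member across the 15 libraries are named as a description, by Pearson's r of log2(FPKM + 1) over genes whose mean reached 5 FPKM; the libraries share groups, so r carries the treatment differences. For Icam1 these were Tnip1 (0.972) and Nfkbia (0.968), inhibitors of NF-kB signalling. For Itgax they were Spag11b (0.98) and Cxcr2 (0.978), for Itgb5 Tmbim1 (0.973), and for Itga4 Ogfrl1 (0.971) and Nuf2 (0.962). Itgal ran with Prune1 (0.961) and Hipk2 (0.956), Itgb1 with Klf6 and Sf3b3 (0.96 each), and Itgb2 with Sord and Hprt (0.948 each). For Itgav the highest values were those of Klf16 (0.92) and Tmem43 (0.907), for the Itgam sum Fkbp2 (0.934) and Abcg2 (0.908), and for Itga6 Tchh (0.886) and Rb1 (0.872).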

How the data were processed

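Per the labels' protocols, cells were lysed in TRIzol, poly(A) RNA was captured on oligo(dT) beads and the second strand was made with dUTP. The submitters' processing notes name cutadapt, HISAT2, StringTie and GRCm38; for their versions and settings, nothing is given in the sources used here. Gene and transcript tables were deposited by the authors in a unit that the values point to as FPKM, with no values below 0.5003 FPKM in the highest group mean of a gene. Depth is unknown, so no counting intervals are given. A gene value is close to the sum of its transcripts weighted by length, within 10% for 10 of the 11 member lines.

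FPKM were used as deposited. The test was limma 3.58.1 (R 4.3.3) on log2(FPKM + 1) for the 10616 genes that reached 0.5 FPKM in 3 or more libraries, in 1 fit of all 15 with a mean-variance trend and Benjamini-Hochberg adjustment within each comparison at 0.05. A fold change on this scale understates low genes. Shares were compared by exact two-sided permutation tests. Plots used matplotlib 3.10.9, and the code was tested on simulated data. Members and lists were chosen with earlier results of these data known. Named genes are all members, up to 4 genes per list with the smallest p over the 5 groups, the other integrin subunits in the table, and the 2 genes most like each member, of which 1 is not reported here. Fn1 and the cell markers Siglecf, Fabp4, Clec9a, S100a8 and Cdh1 are named outside this rule, after their values were seen. Of the 11 member identifiers, 10 have the same version in GENCODE M21. Alternatives were TMM rescaling (an unweighted trimmed mean of log ratios), quantile normalization, a pseudocount of 0.1, no filter, a mean of at least 5 FPKM, no trend, only the compared groups, the replicate number as a block, sums of the transcript table for shares, and the omission of each library. Added after seeing the data were the sum of both Itgam lines, 1 of the promoter motifs, the alternatives for values among treatments and for list genes.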

Additional observations from a re-analysis of the deposited data

Results flagged for a closer look

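The contrast of asbestos with fragments differed between riebeckite and tremolite, by the interaction term of the limma fit, for 3 members and for 5 named genes of the lists. The differences (riebeckite minus tremolite, log2) were 0.50 for Icam1, -0.46 for Itga4 and 0.24 for Itgal. Among the list genes they were 0.36 for Itga5, 0.17 for Prkcd, 0.28 for Syk, 0.27 for Vav1 and 0.35 for Cd81. Icam1, Itga5, Syk and Vav1 were higher with asbestos than with fragments for riebeckite, at 29.5 against 21.3 FPKM, 28.7 against 23.7, 112 against 89.9 and 62.9 against 53.4. For tremolite the same genes stood at 25.0 against 25.9 FPKM, 22.6 against 24.2, 96.6 against 94.3 and 52.7 against 54.3. Cd81 stood at 74.1 FPKM with asbestos and 75.5 with fragments of riebeckite, and at 54.2 against 70.7 for tremolite. Over all genes 3.93% were called for this difference.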

How the results depend on the processing

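Of 68 fold changes of members, 63 kept direction and side of the threshold after TMM rescaling, 62 after quantile normalization, 67 with a pseudocount of 0.1, 68 without a filter, 64 without the trend and 61 with only the compared groups. With the replicate number as a block (replicate block) all 68 did, Icam1 after riebeckite asbestos staying at 0.74, while the tremolite asbestos call of Icam2, no member, was lost (-0.36, adjusted p = 0.0650). Deviations of same-numbered libraries from their group means correlated at r from -0.0613 to 0.172, with 4 of 30 pairs over r = 0.1. On average, 8 of 15 libraries were closest to their own number. Whether same-numbered libraries deviated together was not tested. Counts that moved were those of tremolite asbestos against tremolite fragments, 0 as reported, 2 after quantile normalization, 1 at a mean of at least 5 FPKM and 0 to 1 over omissions of 1 library, of riebeckite asbestos against tremolite asbestos, 8 as reported, 5 with only these groups and 4 to 8 over omissions, and of the difference between minerals, 3 as reported and 1 to 3 over omissions. With both Itgam lines summed, no count of members moved by more than 1.5 times. Directions that turned were those of values not called: the first Itgam line after riebeckite asbestos (-0.000762 after quantile normalization, -0.54 to 0.34 over omissions), tremolite asbestos (-0.45 to 0.42) and tremolite fragments (-0.0691 to 0.807), the Itgam sum after tremolite fragments (-0.0354 to 0.136), and Itgav after tremolite fragments (0.0107 after TMM rescaling, -0.0322 to 0.0235 over omissions). The exception was Itgb2 between the riebeckite habits, called as reported and 0.0454 after quantile normalization; the cause was not tested. The Itgam share after riebeckite asbestos moved by -2.35 to 0.0948 percentage points over omissions. From the transcript table the Itgal share changed by -6.14 after riebeckite fragments and -1.27 after tremolite fragments, against -5.19 and -0.431. All-gene calls between asbestos and fragments dropped to 275 for riebeckite (1121 as reported) and 29 for tremolite (100 as reported), and those between the fragments to 676 (1202 as reported), with only the compared groups. Over all genes, the median fold change moved by less than 0.1 (log2) under each scaling. The balance of higher and lower calls still turned in some comparisons. Between the riebeckite habits, 712 genes were called higher and 409 lower as reported, and 488 and 574 after TMM rescaling. For the difference between minerals the counts were 281 and 136, then 196 and 207. For tremolite asbestos against untreated they were 1062 and 1478, then 1331 and 1098. The shares of all genes called higher or lower thus depend on the scaling. A minimum mean of 5 FPKM removed Itga6, Itga1, Icam2, Icam5 and Fn1 from the test.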
